A study of Mus musculus with 12 samples.

Results

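Untreated EML1 cells that carried TEL-AML1 were compared with untreated EML1 cells that carried the empty vector. The 4 arrays, 2 with TEL-AML1 and 2 with the empty vector, were chosen out of 12 by their sample titles, which name the vector and no cytokine. The other 8 arrays hold the same cells at day 5 and day 7 of IL7 with FLT3L, 2 for each vector and day. They served for the estimate of each gene's spread and for 1 comparison at the end. EML1 is a progenitor line from bone marrow of male BDF1 mice that carries the retroviral vector LRARalpha403SN, which holds a truncated retinoic acid receptor alpha and was present in both groups. Both groups also carried the lentiviral backbone pWPI, and the growth protocol gives a maintenance medium with horse serum and medium conditioned by BHK/MKL cells. Only 1 cell line was used, and the labels do not say whether the arrays of a group came from separate transductions, clones or cultures. The p-values therefore reflect array-to-array spread only, possibly of technical origin, and an effect of TEL-AML1 cannot be told apart from a difference between the cell populations that received the vectors.

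TEL-AML1, also called ETV6-RUNX1, joins the amino-terminal part of the ETS family repressor ETV6 to most of RUNX1, including the Runt domain with which RUNX1 binds DNA together with its partner CBFB. It is the product of a common translocation of childhood B-cell precursor leukaemia, is thought to arise before birth in many cases, and is mostly described as a repressor at sites that RUNX1 would occupy. EML cells depend on stem cell factor and can give erythroid, myeloid, mast and B-lineage cells under the right cytokines.

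Each array gave 1 intensity per probe set, and 12337 named genes above the dim limit were tested. The median intensity lay between 68.1 and 70.8 on the 4 arrays. Across all tested genes, replicate arrays correlated at 0.997 and arrays of different vectors at 0.978 to 0.980. Progenitor markers were bright on every array, with Kit, the receptor for stem cell factor, at 2687 and 2665 for the empty vector and 2698 and 2619 for TEL-AML1. Cd34 stood at 2506 and 2565 against 2358 and 2431, and Ptprc, which encodes CD45, at 831 and 903 against 831 and 875. Markers of mature B and T cells were near the dim limit of 60.1, with Cd79a between 40.4 and 45.9 and Cd3e between 61.0 and 65.5. The stromal collagen gene Col1a1 lay between 88.0 and 99.1, although the growth factor receptor gene Pdgfrb, also a stromal marker, was bright at 917 and 891 against 1261 and 1169.6 in TEL-AML1 cells (0.42 ± 0.10), a call lost on leaving out any of the 4 arrays.

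In the limma fit, 1098 of the 12337 genes differed between the vectors at an adjusted p under 0.05, 8.9% of all genes tested. With TEL-AML1, 338 were higher (2.74%) and 760 lower (6.16%). Such genes are referred to as called, and differences are given on the log2(intensity + 16) scale as TEL-AML1 minus empty vector, with the standard error after ±. The median difference over all tested genes was -0.0079. By more than 2-fold, 56 genes were called higher and 78 lower, and by more than 1.5-fold 160 and 321. The TEL-AML1 arrays did not overlap the empty-vector arrays for any of the 1098 called genes, and they did not overlap for 57.9% of all tested genes. The count depended on having all 4 arrays: leaving out replicate 1 of the empty vector gave 494, and leaving out its replicate 2 gave 519. Leaving out replicate 1 or replicate 2 of TEL-AML1 gave 533 or 477. A call is therefore said below to hold where the gene passed again with each of these 4 arrays left out in turn, as 146 of the 282 called genes that the naming rule picked did. When each array was centred on the median of the tested genes, 410 genes were higher and 508 lower, so the excess of lower genes was smaller under that scaling.

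**Figure D1:**
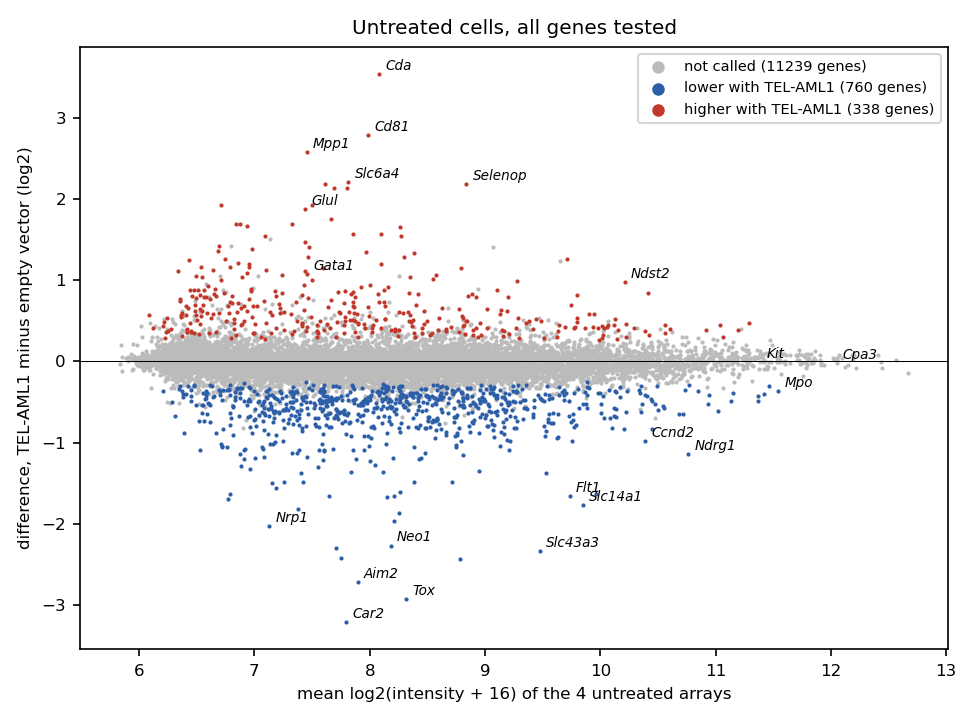
Each point is 1 of 12337 tested genes, placed by its mean log2(intensity + 16) over the 4 untreated arrays (horizontal) and by the difference TEL-AML1 minus empty vector (vertical, log2). The 338 higher genes are red and the 760 lower genes blue, and the bright markers Kit and Cpa3 lie close to 0 while Cda and Car2 stand at the 2 ends.

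Among the genes with the strongest gain, several encode enzymes and membrane proteins that were near the dim limit with the empty vector. Cda, which turns cytidine into uridine, went from 69.4 and 58.0 in empty-vector cells to 972 and 841 in TEL-AML1 cells (3.53 ± 0.17, adjusted p = 3.33e-06). Cd81, a tetraspanin that organises receptors in the membrane, stood at 83.1 and 77.4 against 661 and 637 (2.79 ± 0.37, adjusted p = 0.000961), and Mpp1, a scaffold protein of the red cell membrane, at 56.9 and 54.8 against 401 and 425 (2.58 ± 0.15). In each of these genes the replicate arrays lay close together and the vectors far apart. Slc6a4, the serotonin transporter that loads platelets, stood at 92.6 and 85.1 against 481 and 456 (2.21 ± 0.27). Selenop, a secreted carrier of selenium, stood at 172 and 229 against 926 and 993 (2.18 ± 0.25), and Dctd, the deoxycytidylate deaminase, at 82.4 and 82.3 against 421 and 413 (2.14 ± 0.11). For Selenop the empty-vector arrays differed between themselves more than for the others, and the vectors were still wide apart.

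Further genes of the higher side were Glul, the glutamine synthetase, at 82.1 and 68.1 against 335 and 299.9 (1.88 ± 0.18), and Itgb4, the integrin chain of hemidesmosomes, at 80.0 and 73.7 against 359 and 313 (1.92 ± 0.14). Sntb1, a syntrophin of the dystrophin complex, stood at 94.4 and 94.8 against 364 and 349, and Far2, which reduces fatty acyl groups to fatty alcohols, at 71.5 and 74.5 against 272 and 273. Tspan13, a tetraspanin, was the least even of these genes, with 45.3 and 50.1 against 149.6 and 239 (1.69 ± 0.21). The remaining members of the 40 highest included Nup210, a nuclear pore protein (1.57 ± 0.16), Pde3b, a phosphodiesterase (1.33 ± 0.17), Cdk18 (1.29 ± 0.13), Perp, a membrane protein induced by p53 (1.26 ± 0.17), and Deptor, an inhibitor of mTOR (1.15 ± 0.11). The 40 highest genes, skipping clone and predicted names, ran from 1.15 to 3.53, and 34 of the 40 calls held. The size of the difference chose these genes, so it is given as a description. In the treated cells, 32 of the 40 were called between the vectors at day 5 and 36 at day 7, against 7.32% and 11.3% of all tested genes, with the estimate of spread shared by all 3 comparisons.

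**Figure D2:**
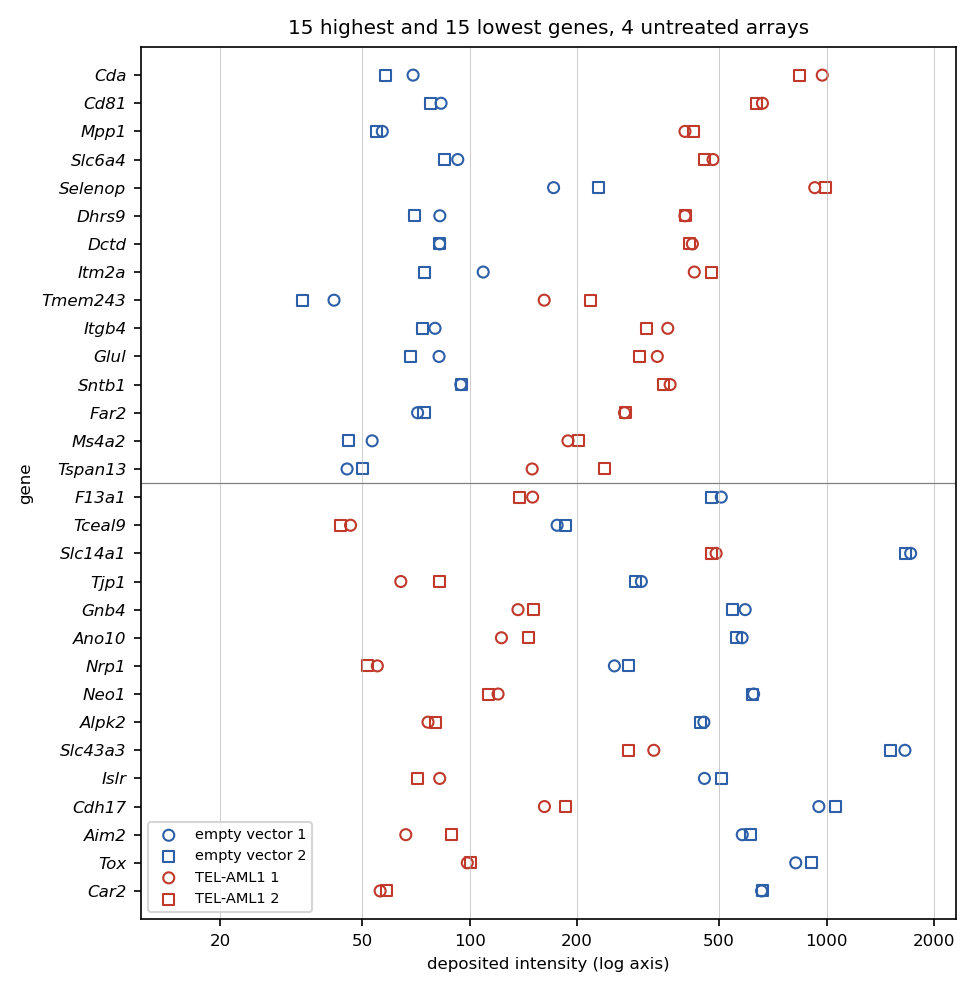
The deposited intensity on each of the 4 untreated arrays (log axis) for the 15 highest and 15 lowest called genes, with empty-vector arrays in blue and TEL-AML1 arrays in red. The rule that picked these genes required that the arrays of the 2 vectors do not overlap. Cda ran from 58.0 to 972 and Car2 from 56.1 to 661.

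On the lower side, bright genes of the empty-vector cells fell to near the dim limit. Car2, a carbonic anhydrase of early red cells, went from 657 and 661 in empty-vector cells to 56.1 and 58.5 (-3.20 ± 0.24, adjusted p = 5.2e-05). Tox, which encodes an HMG-box protein needed by developing T cells, stood at 819 and 905 against 98.5 and 101 (-2.92 ± 0.14), and Aim2, a sensor of DNA in the cytosol, at 580.2 and 611 against 66.2 and 88.9 (-2.72 ± 0.14). The arrays of each vector were close in all 3 genes. Cdh17, a cadherin, stood at 951 and 1061 against 162 and 185, and Slc43a3, a transporter of purine bases, at 1657 and 1512 against 328 and 278 (-2.33 ± 0.096, adjusted p = 2.88e-06). Alpk2, an atypical kinase, stood at 453 and 442 against 76.4 and 80.4 (-2.30 ± 0.18) and Ano10, a member of the anoctamin family, at 579.7 and 558 against 123 and 146 (-1.96 ± 0.14). Slc43a3 remained well above the dim limit with TEL-AML1, unlike Car2 and Tox.

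Other genes of this side were Gnb4, a G protein beta chain, at 591 and 545 against 137 and 151 (-1.87 ± 0.17), and Tjp1, a scaffold of tight junctions, at 303 and 291 against 64.1 and 82.4 (-1.82 ± 0.15). Gem, a small GTP-binding protein that limits calcium channels, stood at 1747 and 1736 against 563 and 538 (-1.63 ± 0.17), and Laptm4b, a lysosomal membrane protein, at 709 and 668 against 236 and 236 (-1.48 ± 0.098). These were bright in the empty-vector cells and kept a measurable level with TEL-AML1. Sort1, a sorting receptor, stood at 238 and 230.4 against 70.0 and 67.7 (-1.56 ± 0.15). Tnfrsf22, a decoy receptor for TRAIL in mice, stood at 263 and 280.1 against 84.8 and 88.1 (-1.49 ± 0.17), and Serpinf1, a secreted antiangiogenic serpin, at 1157 and 1179.8 against 427 and 459 (-1.37 ± 0.21). The 40 lowest genes ran from -3.20 to -1.20 and 38 of the 40 calls held. At day 5, 36 of the 40 were called between the vectors, and 33 at day 7.

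Of these 80 genes, 57 had a promoter in the RefSeq table for GRCm38.p6, and 13 of the 57 genes held, in any of their tabulated promoters, TGTGGT or TGCGGT, 2 forms of the core sequence that RUNX proteins bind, on either strand within the 250 bases before the start site. The windows of 4 of the 13 are shown because they belong to genes on both sides of the comparison and lie at different distances, with the core in capitals (ACCACA and ACCGCA are its reverse complements). Cda (chr4:138367956-138368205, minus strand) has it 245 bases before the start, Slc6a4 (chr11:76998347-76998596, plus strand) at 138, Serpinf1 (chr11:75422624-75422873, minus strand) at 117 and at 90, and Flt1 (chr5:147726012-147726261, minus strand) at 188.
Cda: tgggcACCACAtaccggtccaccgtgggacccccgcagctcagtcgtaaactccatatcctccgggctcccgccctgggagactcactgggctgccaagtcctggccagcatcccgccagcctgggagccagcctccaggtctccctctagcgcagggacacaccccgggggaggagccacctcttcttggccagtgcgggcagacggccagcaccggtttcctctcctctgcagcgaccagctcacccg
Slc6a4: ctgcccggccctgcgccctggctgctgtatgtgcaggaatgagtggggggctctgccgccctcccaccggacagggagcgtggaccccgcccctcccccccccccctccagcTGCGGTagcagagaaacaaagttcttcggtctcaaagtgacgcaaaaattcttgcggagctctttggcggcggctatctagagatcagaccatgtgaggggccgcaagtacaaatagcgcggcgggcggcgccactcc
Serpinf1: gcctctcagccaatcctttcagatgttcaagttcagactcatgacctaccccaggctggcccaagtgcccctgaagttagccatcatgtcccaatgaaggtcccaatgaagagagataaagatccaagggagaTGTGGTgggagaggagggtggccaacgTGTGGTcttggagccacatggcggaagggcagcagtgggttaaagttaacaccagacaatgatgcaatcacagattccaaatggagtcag
Flt1: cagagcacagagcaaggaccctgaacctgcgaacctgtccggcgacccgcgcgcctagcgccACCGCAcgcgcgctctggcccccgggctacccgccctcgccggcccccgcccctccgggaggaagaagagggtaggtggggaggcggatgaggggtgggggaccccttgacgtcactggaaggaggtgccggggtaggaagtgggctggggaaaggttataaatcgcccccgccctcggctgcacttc
Counted by gene in the same way, the share with either form was 20.9% over all genes tabulated and 20.9% over the tested genes. It was 26.0% for genes called higher and 19.3% for those called lower, and 19.5% and 22.4% where the call was by more than 2-fold, so the order turned with the size of the difference. By promoter, 18.6% of all windows of this length held either form. Only these 2 forms and their reverse complements were searched, a match describes the letters and not a site in use, and binding was not measured on these arrays.

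The genes from which the fusion is made, and their partners, differed little. Etv6 stood at 1183 and 1241 against 1527 and 1509.8 in TEL-AML1 cells (0.32 ± 0.082, adjusted p = 0.035), a call lost on leaving out any of the 4 arrays. Runx1 stood at 1224 and 1248 against 1370.3 and 1297 (0.11 ± 0.11, adjusted p = 0.713), and Runx3, its lymphoid relative, at 549 and 552 against 495 and 486 (-0.16 ± 0.13, adjusted p = 0.642). Cbfb stood at 1039 and 1089 against 999.9 and 995 (-0.09), while Runx2 was under the dim limit and was not tested. The arrays of the vectors overlapped for none of Etv6, Runx1, Runx3 and Cbfb, as for 57.9% of all tested genes, and the last 3 did not pass. Rara, whose truncated form the line carries, stood at 379 and 398 against 347 and 336 (-0.18, adjusted p = 0.385), and whether any of these probe sets reads the introduced sequences was not tested. Of 25 tested genes linked to RUNX1 and its corepressors, 2 were higher and 2 lower, against 2.74% and 6.16% of all tested genes. None of these 4 calls held. With replicate numbers in the fit as a block within each condition, 4 genes of the list were higher and 3 lower. Mpo, the myeloperoxidase and a RUNX1 target, stood at 3359 and 3389.7 against 2665 and 2551 (-0.37 ± 0.068, adjusted p = 0.00658), a call that ended without either empty-vector array, without TEL-AML1 replicate 2, and with arrays centred on the tested genes.

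Pyrimidine and deoxynucleotide genes, which supply and recycle building blocks of DNA, had 5 of 32 tested genes called higher and 4 lower, with a median of -0.02. That is 28.1% called, against 8.9% of all tested genes. Only the calls of Cda, Dctd and Slc43a3 held. Cda and Dctd both remove the amino group from cytosine compounds, and both were among the 10 highest genes. Slc29a2, a nucleoside transporter, was lower at 196 and 175 against 131 and 127 (-0.47 ± 0.082), a call that ended without empty-vector replicate 1 or TEL-AML1 replicate 2. In purine metabolism, 0 of 25 were higher and 2 lower (8.0% called, 1 and 3 with the block). Of these, Impdh1, which makes guanine nucleotide precursors, held, at 342 and 322 against 187 and 177 (-0.81 ± 0.11, adjusted p = 0.00106).

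Lineage markers shifted in a mixed way, and the clearest pattern was in mast cell genes. Of 36 tested genes of mast cells, basophils and eosinophils, 11 were called higher and 0 lower, with a median of 0.27, against 2.74% higher among all genes. The difference was above 0 for 32 of the 36. Without 1 of the 4 arrays, 3 to 4 of these calls remained, and with array medians centred 7 genes were higher. The calls that held were Tpsab1, a tryptase, at 69.7 and 62.4 against 93.6 and 112 (0.53 ± 0.086), Siglecf, a sialic acid receptor of eosinophils, at 181 and 159 against 353 and 325 (0.93 ± 0.14), and Ndst2, the sulphotransferase that makes heparin in mast cell granules, at 861 and 801 against 1640.0 and 1655 (0.98 ± 0.092, adjusted p = 0.000147). Hdc, the histamine-forming enzyme, stood at 159 and 156 against 536 and 521 and Ms4a2, a chain of the IgE receptor, at 53.3 and 45.6 against 188 and 201, with larger differences (1.65 and 1.69) whose calls were lost on leaving out any of the 4 arrays. Gata2, a factor of stem and mast cells, stood at 919 and 918 against 1317 and 1326 (0.52) and its call was lost in the same way. Not all mast genes differed: Cpa3, the mast cell carboxypeptidase and the brightest of them, stood at 4093 and 4408 against 4220.3 and 4183 (-0.02 ± 0.091), with overlapping arrays, and Fcer1a, the IgE receptor's alpha chain, was under the dim limit. The summed intensity of the 42 listed genes with a probe set was 26980 and 27717 for the empty vector and 33542 and 33591 for TEL-AML1. In bulk RNA, more cells of a type and more RNA per cell cannot be told apart.

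Among 38 erythroid genes, 4 were called higher and 3 lower, and among 32 genes of megakaryocytes and platelets, 4 and 6. The shares called were 18.4% and 31.2%, against 8.9% of all tested genes (2.74% higher and 6.16% lower). Gata1, the factor of red cells, platelets and mast cells, stood at 107 and 103 against 238 and 239 (1.07 ± 0.19, adjusted p = 0.00482) and its call held. Among proteins of the red cell membrane, Mpp1 was higher, while Epb42 stood at 159.7 and 158 against 66.3 and 66.3 (-1.09 ± 0.13) and the urea transporter Slc14a1 at 1719.6 and 1660.3 against 490.3 and 476 (-1.77 ± 0.082). The erythroid calls thus pointed both ways within 1 group of proteins. Car1, the carbonic anhydrase that red cells make beside Car2, stood at 62.1 and 73.2 against 205 and 238 (1.51 ± 0.49, adjusted p = 0.0961) and did not pass. Of the platelet genes, Slc6a4 was higher, while Gp9, a chain of the von Willebrand factor receptor, stood at 261 and 306 against 124 and 126 (-1.08 ± 0.099) and F13a1, the clotting factor chain, at 507 and 475 against 150.1 and 138 (-1.67 ± 0.12). Pdgfa, a platelet growth factor gene on chromosome 5, stood at 158 and 176 against 87.4 and 83.0 (-0.85 ± 0.10), and Pf4 and Itga2b, early markers of the lineage, were bright with both vectors (672 and 665 against 612 and 626 for Pf4).

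Of 34 stem and progenitor genes, 3 were higher and 4 lower, of which the calls of Meis1 and Tie1 held. Meis1, the homeobox partner of HOX proteins in stem cells, stood at 353 and 338 against 138 and 171 (-1.09 ± 0.13, adjusted p = 0.000593), and Tie1, an orphan receptor of the angiopoietin system, at 102 and 103 against 63.1 and 68.3 (-0.53 ± 0.085). Among 27 granulocyte genes, 3 were called higher and 2 lower, of which only Ncf1, an NADPH oxidase subunit on distal chromosome 5, held (273 and 247 against 117 and 109). Monocyte, macrophage and dendritic genes had 5 of 35 higher and 2 lower (7 and 4 with the block). Called shares of these lists, in the order given, were 20.6%, 18.5% and 20.0%, against 8.9% of all tested genes. Fcgr3, an Fc receptor, stood at 415 and 445 against 727 and 789 (0.79 ± 0.13), and Gpr183, a receptor for oxysterols that guides leukocytes, at 61.0 and 67.3 against 229 and 206 (1.54 ± 0.11). Both of these calls held and the arrays of the vectors were well apart.

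Early B-lineage and T-cell genes differed in how many were called, 3.57% and 17.9% of those tested, against 8.9% of all genes. Of 28 tested early B-lineage genes, 0 were higher and 1 lower (0 and 2 with the block), that 1 being Cd72, a coreceptor, at 675 and 724 against 462 and 448 (-0.60), whose call was lost on leaving out any of the 4 arrays. The B-lineage factors Pax5, at 66.2 and 57.6 against 68.1 and 60.2, and Ebf1, at 49.2 and 48.5 against 49.1 and 47.6, stayed near the dim limit with either vector. Of 28 T and NK cell genes, 2 were higher and 3 lower. Cd7, a marker of early lymphoid and T cells, stood at 101 and 103 against 232 and 244 (1.11 ± 0.12), and Ubash3a, which restrains T-cell receptor signalling, at 391 and 380.2 against 216 and 226 (-0.76 ± 0.12). With Tox, these were the 3 calls of that list that held. Stromal genes had 1 of 32 higher and 2 lower (9.38% called), the held calls being Islr, a secreted protein (455 and 509 against 82.4 and 71.6), and Mmp14, a membrane-bound matrix protease (282 and 275 against 109 and 114). The summed intensity of the 38 stromal genes with a probe set ran from 3856 to 4159 on the 4 arrays, and its part in these 2 results was not tested.

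Surface proteins by which progenitors attach to and move through marrow were called in both directions. Of 52 tested adhesion and homing genes, 8 were higher and 5 lower. That is 25.0% called, against 8.9% of all tested genes (2.74% higher and 6.16% lower). Without 1 of the 4 arrays, 7 to 8 of the 13 calls remained. Cd44, the hyaluronan receptor, stood at 52.7 and 52.9 against 205 and 201 (1.67 ± 0.25, adjusted p = 0.00195). The integrin chains parted by gene. Itgb2, of the leukocyte integrins, stood at 156 and 156 against 284 and 293 (0.83 ± 0.074), and Itga6, a laminin receptor chain that pairs with Itgb4, at 783 and 798 against 1149 and 1237 (0.58 ± 0.076). In contrast, Itgb5, which pairs with the alpha v chain, stood at 258 and 238 against 104 and 97.9 (-1.17 ± 0.15), and all 4 integrin calls named here held. Of 26 tetraspanins, 4 were higher and 2 lower (23.1% called), with Cd81 and Tspan13 the calls that held.

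Guidance receptors, known from the wiring of axons and also used by blood and vessel cells, had 2 of 43 tested genes higher and 4 lower, and 5 of these 6 calls held. Called genes were 13.95% of this list, against 8.9% of all tested genes (2.74% higher and 6.16% lower). Neo1, a receptor for netrins and repulsive guidance molecules, stood at 624 and 619 against 120.1 and 113 (-2.27 ± 0.18). Nrp1, a coreceptor of semaphorins and VEGF, stood at 254 and 278 against 55.1 and 51.6 (-2.02 ± 0.22), and Plxna2, the semaphorin receptor with which neuropilins pair, at 137 and 139.5 against 66.0 and 67.1 (-0.90 ± 0.072). All 3 receptors, and the ephrin receptor Epha2 (262 and 234 against 132 and 121), were lower with TEL-AML1. The ligand Sema4c was higher, at 222 and 201 against 479 and 429 (1.04 ± 0.097).

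Cytokine receptor and JAK-STAT genes had 5 of 53 higher and 2 lower (5 and 5 with the block, 3 and 3 with array medians centred). The call of Ifngr2, the signalling chain of the interferon gamma receptor, held, at 423 and 428 against 895 and 821 (0.98 ± 0.15, adjusted p = 0.00219). Receptor tyrosine kinase and RAS-MAPK genes had 2 of 56 higher and 7 lower, 2 of the lower on chromosome 5. Of the cytokine receptor list 13.2% was called and of this list 16.1%, against 8.9% of all tested genes. Igf1r, the receptor for insulin-like growth factor, stood at 409.7 and 382 against 150.0 and 158 (-1.27 ± 0.17), and Rasa2, which switches RAS off, at 619.7 and 591 against 346 and 355 (-0.76 ± 0.11). Flt1, the VEGF receptor on distal chromosome 5, stood at 1531 and 1472 against 466 and 461 (-1.66 ± 0.17). These calls held, and with Tie1 they were the only held calls of this list.

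TGF-beta and BMP genes had 0 of 40 higher and 3 lower (0 and 5 with the block). Smad3, which carries the TGF-beta signal to the nucleus, stood at 291 and 281 against 149 and 145 (-0.89 ± 0.10), and Smurf1, a ubiquitin ligase of SMAD proteins on distal chromosome 5, at 346 and 338 against 165 and 174 (-0.95 ± 0.083). Wnt and Notch genes had 2 of 52 higher and 6 lower (3 and 10 with the block). Of the TGF-beta and BMP list 7.5% was called and of this list 15.4%, against 8.9% of all tested genes. Fzd7, a Wnt receptor, was higher at 72.3 and 69.7 against 138 and 117 (0.72 ± 0.099). Jag2, a ligand of Notch, stood at 721 and 615 against 384 and 369 (-0.80 ± 0.13), and Dtx2, a ubiquitin ligase of Notch signalling on distal chromosome 5, at 346 and 340.3 against 201 and 190.4 (-0.76 ± 0.070). Those 3 were the held calls of the list.

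G protein signalling had 6 of 80 genes higher and 8 lower (17.5% called, against 8.9% of all tested genes). Of the lower ones, 2 lie on chromosome 5, and 9 of the 14 calls held. P2ry1, a receptor for ADP, stood at 57.8 and 63.7 against 117 and 119 (0.80 ± 0.098), P2ry13 at 61.7 and 57.4 against 104 and 95.7 and P2ry10, a relative that binds lysophospholipids, at 40.3 and 37.7 against 102 and 104 (1.11 ± 0.14). Adcy7, an adenylate cyclase, stood at 359 and 343 against 627 and 616 (0.80 ± 0.074), and Pde3b, which breaks down its product cyclic AMP, at 198 and 191 against 514 and 517. The chains Gnb4 and Gnaq were lower (547 and 509 against 342 and 363 for Gnaq, -0.56 ± 0.088), as were Gna12 and Gnb2 of distal chromosome 5 (-0.64 and -0.63). Among ion channels and solute carriers, 4 of 63 were higher and 8 lower. P2rx3, an ion channel opened by ATP, stood at 789.8 and 754 against 304 and 283 (-1.35 ± 0.21), Slc12a7, a potassium and chloride carrier, at 229.6 and 209 against 149 and 148 (-0.51 ± 0.075), and Slc16a10, a carrier of aromatic amino acids, at 166 and 161 against 283 and 283 (0.74 ± 0.072).

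Among 101 transcription factors of blood cells, 5 were higher and 3 lower, 7.92% called against 8.9% of all tested genes. Klf5 stood at 74.5 and 60.05 against 164 and 175 (1.16 ± 0.11), and Mafk, a small MAF protein on distal chromosome 5, at 345 and 352 against 211 and 211 (-0.69 ± 0.12). Spi1, the PU.1 factor, stood at 633 and 743 against 734 and 762, Tal1 at 685 and 661 against 681 and 693 and Myb at 1687 and 1741 against 1809 and 1817, and none of the 3 passed. Chromatin regulators had 2 of 84 higher and 7 lower (10.7% called), 2 of the lower on chromosome 5. The held calls were Hdac9, a class II histone deacetylase, at 199 and 196 against 93.5 and 91.1 (-0.98 ± 0.11), and Kdm2b, a demethylase of Polycomb complexes on distal chromosome 5 (-0.45). Hmga2, an architectural chromatin protein, stood at 1745 and 1789 against 1132 and 1195 (-0.60 ± 0.11), a call that ended without empty-vector replicate 2 or TEL-AML1 replicate 1.

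Targets of p53 had 2 of 36 tested genes higher and 8 lower, with a median of -0.14, and 4 to 6 of the 10 calls remained without 1 of the 4 arrays. Called genes were 27.8% of the list, against 8.9% of all tested genes. Mdm2, the ubiquitin ligase that degrades p53, stood at 1003 and 948 against 569 and 575 (-0.75 ± 0.11, adjusted p = 0.00203). Zmat3, an RNA-binding protein, stood at 460.2 and 474 against 213 and 219 (-1.06 ± 0.17), and Pmaip1, the death protein NOXA, at 241 and 226 against 128 and 126 (-0.80 ± 0.12). Perp was higher, at 522 and 527 against 1296 and 1266, and the calls of these 4 genes held. With arrays centred on the median of the tested genes, the list had 3 higher and 3 lower, so the excess of lower calls was not seen under that scaling. BCL2 family and cell death genes had 0 of 39 higher and 4 lower (10.3% called), with Pmaip1 and the TNF receptor gene Tnfrsf1a (251 and 234 against 130.4 and 139, -0.78 ± 0.087) the calls that held.

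Of 30 genes of D cyclins, CDK4/6 and their inhibitors, 1 was higher and 1 lower (1 and 3 with the block). The share called was 6.67%, against 8.9% of all tested genes. For replication, ribosome and DNA repair genes it was 6.38%, 6.45% and 8.62%. Ccnd2, the D cyclin of progenitors and B cells, stood at 1877 and 1867 against 977 and 903 (-0.98 ± 0.12, adjusted p = 0.000555) and held. Of 47 replication and mitosis genes, 0 were higher and 3 lower, and of 62 genes of ribosome biogenesis and translation 0 and 4. All of those lower genes, the clamp loader genes Rfc2, Rfc3 and Rfc5 among them, lie on chromosome 5, and of them only Sbds held. DNA repair genes had 1 of 58 higher and 4 lower, with Fancb, a Fanconi anaemia gene on chromosome X, at 268 and 271 against 397 and 450.0 (0.62 ± 0.094) and Brca2 and Pms2, both of distal chromosome 5, lower (-0.82 and -0.67).

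Interferon-linked genes had 0 of 48 higher and 4 lower (1 and 8 with the block, 0 and 2 with arrays centred on the tested genes). The share called was 8.33%, against 8.9% of all tested genes. Sp100, a protein of nuclear bodies, stood at 242 and 274 against 112 and 126 (-1.02 ± 0.14), and Tap1, which carries peptides to MHC class I, at 275 and 254 against 159.7 and 164 (-0.65 ± 0.11). Of 29 MHC class I and antigen processing genes, 0 were higher and 3 lower (10.3% called). Among the lower ones, Nlrc5, the activator of MHC class I genes, stood at 220.2 and 189 against 106 and 117 (-0.79 ± 0.10, adjusted p = 0.000806), a call that ended when a gene's probe sets were averaged. Nucleic acid sensors and Schlafen genes had 1 of 25 higher and 4 lower (20.0% called), with Aim2, Nlrc5 and Slfn5 (130.2 and 133 against 85.6 and 93.1, -0.49 ± 0.068) the calls that held.

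In metabolism, the retinoid list had 2 of 25 higher and 0 lower (3 and 1 with the block). The share called was 8.0%, against 8.9% of all tested genes. For the sterol, ATF4 and glutathione lists that follow it was 10.5%, 9.8% and 11.9%. Dhrs9, a retinol dehydrogenase, stood at 82.5 and 69.9 against 401 and 403 (2.18 ± 0.15, adjusted p = 3.9e-05), and Dhrs7 of the same enzyme family at 71.9 and 62.8 against 141 and 169 (1.03 ± 0.13). Sterol and fatty acid synthesis genes had 3 of 38 higher and 1 lower with a median of 0.16, and only the call of Mylip, the ligase that degrades the LDL receptor, held (119 and 107 against 196 and 225, 0.81 ± 0.086). Genes of the ATF4 response and amino acid supply had 0 of 51 higher and 5 lower (2 and 6 with the block). Of the 5 lower genes, 2 lie on chromosome 5. Slc7a11, the cystine importer that feeds glutathione synthesis, stood at 412 and 443 against 152 and 162 (-1.36 ± 0.21). Glutathione and antioxidant genes had 2 of 42 higher and 3 lower (2 and 6 with the block), with Selenop higher and Slc7a11 and Srxn1, which repairs peroxiredoxins, lower (276 and 259 against 162 and 148, -0.73 ± 0.10).

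Glycolysis and hypoxia genes had 2 of 45 higher and 2 lower. The 1 call that held was Ndrg1, a gene induced by hypoxia and by differentiation, at 2682 and 2465 against 1238 and 1077 (-1.14 ± 0.17, adjusted p = 0.00179). Lipid mediator and phospholipid genes had 5 of 67 higher and 4 lower, with Lpcat2, which makes platelet-activating factor, at 72.9 and 79.2 against 151 and 158 (0.89 ± 0.079) and Inpp4b, an inositol phosphatase, at 187 and 193 against 347 and 378 (0.87 ± 0.11). Fabp5, a fatty acid carrier, stood at 506 and 513 against 209 and 221 (-1.19 ± 0.12), and Pld4, of the phospholipase D family, at 261 and 238 against 131 and 138 (-0.81 ± 0.12). Lysosome and autophagy genes had 4 of 53 higher and 5 lower, with Laptm4b and Npc1, the cholesterol transporter (668 and 661 against 423 and 436, -0.61 ± 0.10), the calls that held. Proteases and inhibitors had 1 of 49 higher and 6 lower, of which Mmp14 and Serpinf1 held. Called shares of these lists, in the order given, were 8.89%, 13.4%, 17.0% and 14.3%, against 8.9% of all tested genes.

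Some genes of actin filaments and microtubules were called. Gsn, the actin-severing gelsolin, stood at 654 and 555 against 273 and 291 (-1.05 ± 0.14), and Tubb2b, a beta tubulin, at 724 and 727 against 455 and 420.3 (-0.71 ± 0.091). Tuba8, an alpha tubulin, was higher at 764 and 768 against 1175 and 1129 (0.58 ± 0.097). Immediate early genes, which respond within minutes to growth signals, had 2 of 29 higher and 0 lower, with a median of 0.19 (6 and 1 with the block). The share called was 6.9%, against 8.9% of all tested genes. Ier3 stood at 122 and 115 against 376 and 392.5 (1.57 ± 0.10) and Zfp36, which destabilises cytokine messages, at 146 and 149.6 against 247 and 323 (0.87 ± 0.14). Egr1, a factor of this group, stood at 310.1 and 317 against 884 and 828 (1.40 ± 0.44, adjusted p = 0.0844), and did not pass although the arrays of the vectors did not overlap.

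**Figure D3:**
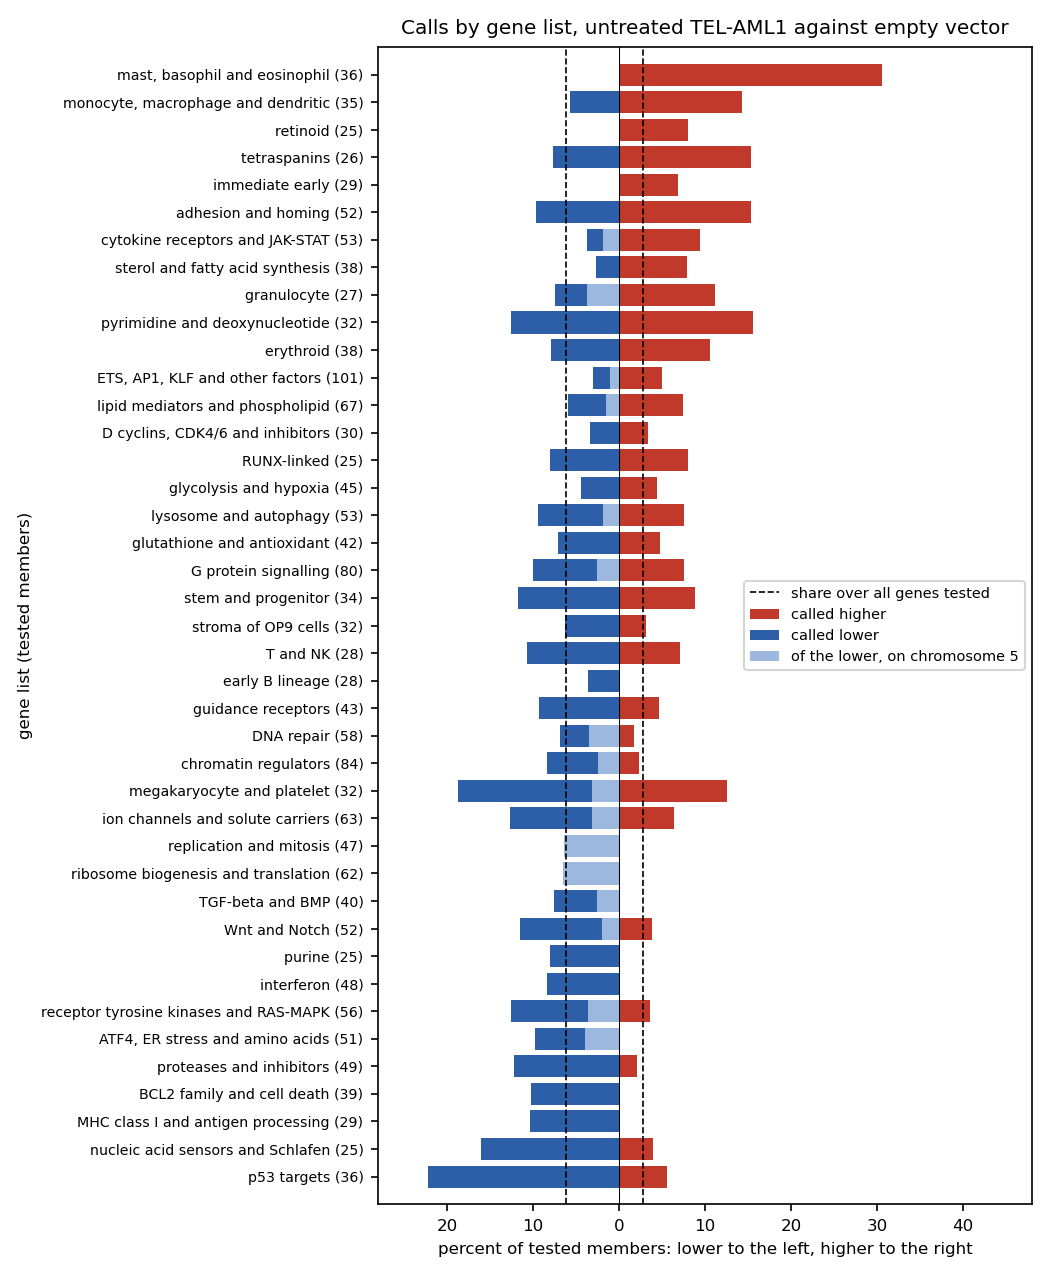
For each of 41 of the 42 gene lists, the bars give the percent of tested members (their number in brackets) called higher (red, to the right) or lower (blue, to the left, with the part on chromosome 5 in pale blue), beside dashed lines at the 2.74% higher and 6.16% lower of all tested genes. Mast cell genes reach farthest to the higher side and p53 targets farthest to the lower side, while the lower calls of replication and of ribosome genes are all on chromosome 5.

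Lower calls were more frequent on chromosome 5 than on any other chromosome. It had 780 tested genes, of which 16 were higher and 219 lower (28.1% lower), while on the other autosomes and chromosome X between 2.23% and 6.65% of tested genes were lower. In gene order, the first 9 windows of 50 genes on chromosome 5 had 0 to 6 lower calls each, and window medians between -0.06 and 0.00. From Pebp1 to the end, 198 of 330 genes were lower and 3 higher, with 24 to 33 lower calls in each full window and window medians between -0.62 and -0.35. The change came between neighbouring windows, the window from Iscu to Taok3 with 5 lower calls and that from Pebp1 to Fam216a with 24. Genes of this stretch that were among the named calls, such as Flt1, Limk1, a kinase that stabilises actin (803 and 778 against 389.6 and 361, -1.04 ± 0.084), and Sbds, a ribosome maturation factor (678 and 668 against 417 and 427, -0.65 ± 0.068), share this position. Of 139 lower genes over all lists, 29 lie on chromosome 5. Without chromosomes 5 and Y, 318 genes were higher and 541 lower of 11551 tested, 7.44% in all. The number of copies of the chromosome was not measured.

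Chromosome Y had 6 tested genes, of which 4 were higher and none lower. Eif2s3y, whose product takes part in translation initiation, stood at 178 and 194 against 457 and 493 (1.28 ± 0.22), Uty, a histone demethylase relative, at 144 and 138 against 384 and 384 (1.35 ± 0.17), and Srsy at 47.4 and 45.7 against 103 and 124 (1.05 ± 0.11). Srsy lay between 45.7 and 58.5 on all other arrays and passed the dim limit of 60.1 only through the untreated TEL-AML1 arrays. Sry stood at 112 and 97.0 against 113 and 105 (0.06 ± 0.12), with overlapping arrays. Chromosome X had more higher than lower calls, 22 and 8 of 358, with Mpp1, Gata1 and Itm2a among the higher ones. Both vectors were in a line from male mice, and whether all cells keep these chromosomes was not measured.

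**Figure D4:**
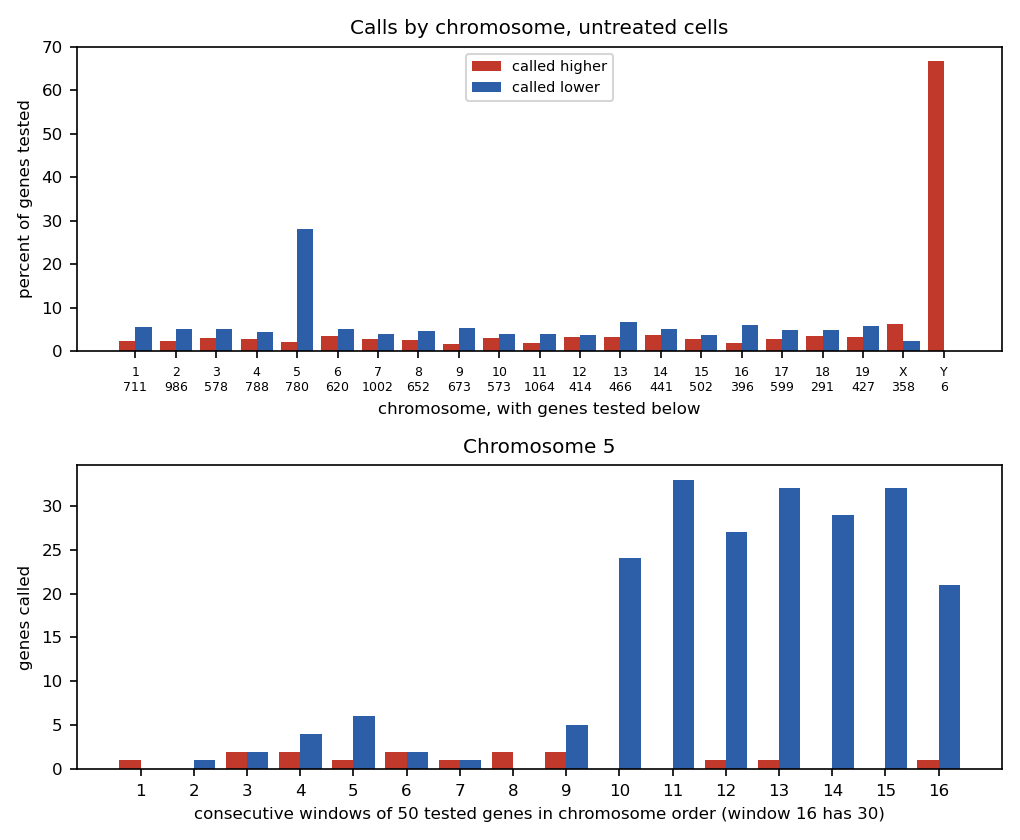
The upper panel gives the percent of tested genes called higher (red) and lower (blue) on each chromosome, with the number tested below each name. The lower panel gives the number of called genes in consecutive windows of tested genes along chromosome 5, where lower calls go from 5 in window 9 to 24 in window 10 and stay high to the end.

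Most of the untreated difference was also seen in treated cells, which have their own arrays of both vectors but share the estimate of spread. Of the 1098 called genes, 1053 had the same sign at day 5 and 1048 at day 7. The day 5 comparison called 7.32% of all genes and the day 7 comparison 11.3%, and 590 and 672 of the 1098 genes were called there in the same direction. In both of them 510 genes were called the same way, 341 in neither, and 5 were called in the opposite direction, 3 of them on both days (Ccr2, Mid1 and Slfn5) and 2 on 1 day (Isg20 and Onecut2, the latter named after its values were seen). Among the top genes, Cda had differences of 3.51 at day 5 and 2.68 at day 7, Car2 of -3.77 and -3.62, and Itgb4 of 1.90 and 1.37. The gap was smaller there for Nrp1 (-0.68 and -0.45), Phyh, a peroxisomal enzyme of phytanic acid breakdown (-1.60 in untreated cells, -0.47 and -0.21 later), and Cd81 (0.53 and 1.34). None of these genes passed the limma test of the difference between conditions given next (adjusted p = 0.116 for Nrp1 and 0.265 for Phyh).

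The difference between conditions was tested itself, as the untreated vector difference minus the mean of those at day 5 and day 7. It called 13 genes (0.105% of all tested), 5 with a more positive and 8 with a more negative difference in untreated cells, while 1230 had an unadjusted p under 0.05. When replicate numbers entered as a block within each condition, 37 genes were called, 18 and 19, the 13 included, and with 1 block over all arrays 9 were called, 8 of the 13 among them. The count was 5 without empty-vector replicate 1 or TEL-AML1 replicate 1 of the untreated arrays, 4 without replicate 2 of either, 5 without empty-vector day 5 replicate 2, 27 without empty-vector day 7 replicate 1 and 72 without its replicate 2. Dhrs9 differed between the vectors by 2.18 in untreated cells and by 0.09 and 0.22 at day 5 and day 7 (2.03 ± 0.19, adjusted p = 0.00262). Ccr2, a chemokine receptor of monocytes, stood at 139 and 149 against 203 and 218 in untreated cells (0.50, a call that ended without either empty-vector array or TEL-AML1 replicate 2), and differed by -1.36 and -0.51 later (1.43 ± 0.12, adjusted p = 0.00262). Mid1, a ubiquitin ligase of microtubules on chromosome X, turned in the same way (0.66, then -0.43 and -0.49).

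In the other direction, Slc14a1, Fabp5 and Dok7, an adaptor of muscle receptor signalling on chromosome 5, were lower in untreated TEL-AML1 cells by -1.77, -1.19 and -1.65, and by -0.65, -0.17 and -0.78 at day 7. B3gnt5, which starts the lacto-series glycolipids, stood at 187 and 242 against 107 and 114 in untreated cells (-0.85) and differed by 0.12 and 0.16 later (-0.99 ± 0.15, adjusted p = 0.0488). Ms4a6c, a membrane protein gene of monocytes, stood at 48.8 and 49.2 against 75.2 and 79.2 in untreated cells, near the dim limit, and differed by 2.28 and 2.86 later (-2.05 ± 0.24, adjusted p = 0.0116). Its neighbour Ms4a6b, a similar gene, and Parp14, an interferon-induced ADP-ribosyltransferase, had the same form, with 0.31 and 0.34 in untreated cells and 2.53 and 1.85 at day 7. The untreated difference of these 3 genes did not pass by itself. Ms4a6c and Ms4a6b passed the dim limit only through the treated TEL-AML1 arrays, where they are high. The treated arrays also differ from the untreated ones in medium and serum and, as the protocol reads, in OP9 stroma, so that cytokines and culture cannot be told apart.

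**Figure D5:**
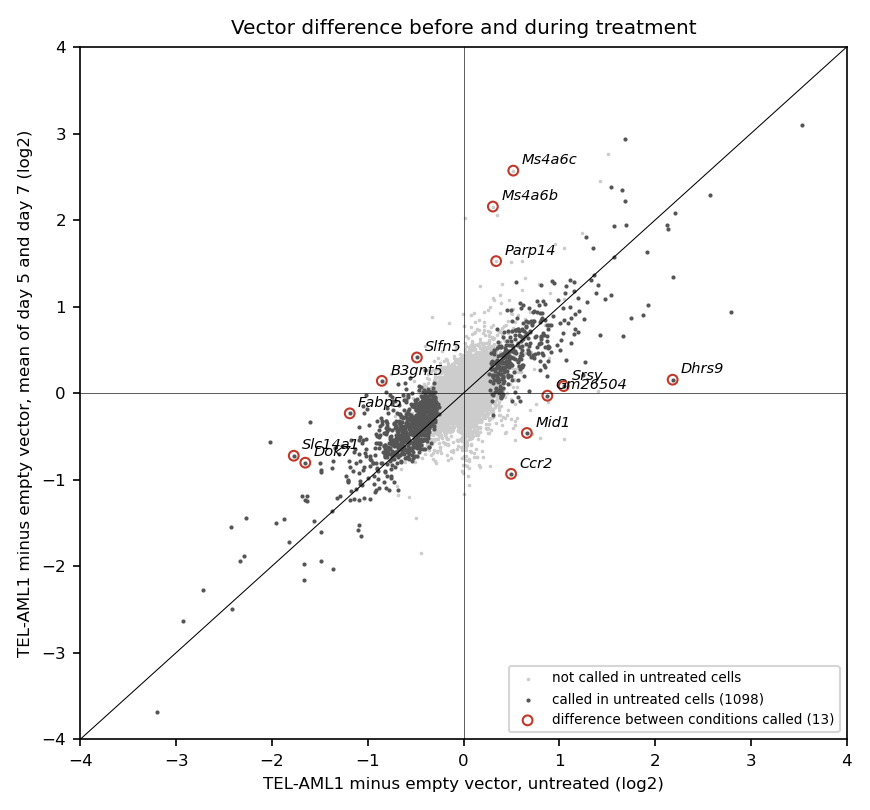
Each point is 1 tested gene, with the vector difference in untreated cells (horizontal) and the mean of the differences at day 5 and day 7 (vertical), both as TEL-AML1 minus empty vector on the log2 scale, and the line marks equal differences. The 1098 genes called in untreated cells are dark, and the 13 genes whose difference between conditions was called are ringed, with Dhrs9 far to the right of the line and Ms4a6c far above it.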

How the data were processed

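The deposited table gives an intensity for each of 35556 probe sets on 12 Affymetrix arrays. Its scale is not stated in the sources used here and was assumed to be linear. The authors' background correction, probe summary and normalization are not given in the sources used here, and no rescaling was done. An array has no read depth, and 2 arrays a group limit the precision. Of the probe sets, 21218 list 1 gene, 1881 several and 12457 none, and only the first kind was named. Each of 18820 genes was represented by its brightest probe set and tested if its mean intensity passed the 40th percentile (60.1), which left 12337. Group means of log2(intensity + 16), which understates changes of dim genes, were fitted to all 12 arrays with limma 3.58.1 in R 4.3.3, with Benjamini-Hochberg adjustment within a contrast and a threshold of 0.05. On data simulated for the untreated comparison with 12337 genes, 69 of 100 changes of 0.5 and 100 of 100 of 1 (log2) were recovered, with 16 false calls. Named genes were the 40 highest and 40 lowest called genes, called members of 42 lists and up to 8 members with the smallest p, the fusion's own genes and progenitor markers, and the genes of the contrast between conditions. A part is printed, with preference for calls that held, and 1 list is not reported here. The members and lists were chosen with earlier results of these data known. The replicate numbers are in the titles. Deviations of same-numbered arrays correlated at 0.334 (untreated), 0.375 (day 5) and 0.271 (day 7), so the numbers may pair the arrays. The main fit left this pairing out. Counts with the replicate numbers as a block are given where they differ by over 1.5 times. Promoters and gene order come from RefSeq GRCm38.p6.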

Additional observations from a re-analysis of the deposited data

Results flagged for a closer look

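For 13 genes the vector difference in untreated cells differed from that in treated cells by a test of the difference itself (limma, Benjamini-Hochberg, adjusted p under 0.05). The untreated difference minus the mean of day 5 and day 7 was negative, on the log2 scale, at -2.05 for Ms4a6c, -1.85 for Ms4a6b and -1.18 for Parp14, 3 genes that stood at 40.8 to 79.2 on all untreated arrays. It was -1.05 for Slc14a1, -0.99 for B3gnt5, -0.95 for Fabp5, -0.90 for Slfn5 and -0.85 for Dok7, all lower with TEL-AML1 in untreated cells. It was positive at 2.03 for Dhrs9, 1.43 for Ccr2, 1.12 for Mid1, 0.97 for Srsy on chromosome Y and 0.91 for the small nucleolar RNA gene Gm26504, all higher in untreated TEL-AML1 cells. Srsy and Gm26504 passed the dim limit only through the untreated TEL-AML1 arrays, so that their entry into the test depended on the group where they are high. The same holds for Ms4a6c and Ms4a6b with the treated TEL-AML1 arrays. These stood at 349 and 272 (day 5) and 652 and 409 (day 7) for Ms4a6c. For Ms4a6b they stood at 218 and 156 (day 5) and 471 and 285 (day 7).

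Probe sets without a single gene name stand outside the comparisons above. Of 14338 such probe sets, 7392 passed the dim limit, and 162 of the 7392 differed between the untreated vectors, 83 higher and 79 lower with TEL-AML1. The model was the same, with the adjustment over all probe sets above the dim limit. Among named genes a larger share was called, 1098 of 12337 (8.9%), 338 higher and 760 lower.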

How the results depend on the processing

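The count of 1098 genes between the untreated vectors kept within 1.5 times, from 859 to 1491, under quantile normalization, centring, other filters on dim genes, other pseudocounts, averaged probe sets, a trended robust variance, replicate blocks and without chromosomes 5 and Y, with 1491 for the replicate block within each condition. It was 2606 with array weights, 2374 with only the 4 untreated arrays and 602 at an adjusted p of 0.01. Leaving out 1 array gave 477 to 1338. Centring on the tested genes, an alternative chosen after seeing the data, gave 918. The 13 genes that differed between conditions became 49 with array weights, 37 with the replicate block within each condition and 4 to 72 without 1 array. Of the genes picked by the naming rule, the block within each condition ended the call of 1, Slc29a3, and a block over all arrays ended those of 11, Slc29a3 included. Of the fixed markers, the difference of Ptprc turned to 0.0063 under quantile normalization, 0.0489 with centring on the tested genes, and 0.0357 and 0.0139 without empty-vector replicate 2 or TEL-AML1 replicate 1. Without 1 array it ran from -0.0813 to 0.0357. That of Kit turned to 0.0621 with that centring and 0.0119 without TEL-AML1 replicate 2, and ran from -0.0310 to 0.0119 without 1 array. Neither gene passed the test in any setting. No called gene that was named changed sign. The causes were not tested. Brightness limits genes near 60.1.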

Other observations

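Of 73 miRNA genes above the dim limit, 3 were called, all higher with TEL-AML1, while 8.9% of all tested genes were called and 2.74% called higher. They are named here after their values were seen, and whether their calls hold without 1 array was not tested. Mir142, the host of a miRNA found across blood cells, stood at 138 and 158 on the empty-vector arrays against 193 and 201 (0.38 ± 0.089, adjusted p = 0.0222). Mir680-1 and Mir680-2, which share 1 mature sequence on chromosomes 6 and X, stood at 53.1 and 48.8 against 71.8 and 69.7, and at 65.7 and 65.6 against 113 and 100.4. Probe sets of this kind read longer transcripts of the locus and not the mature strand. The mature sequences of RefSeq GRCm38.p6 follow, with the seed (bases 2 to 8) in capitals, which differs between all 3.
miR-142a-5p: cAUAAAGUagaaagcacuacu
miR-142a-3p: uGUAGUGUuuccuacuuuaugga
miR-680: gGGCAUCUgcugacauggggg
At day 5 and day 7 the vector difference of Mir142 was 0.44 and 0.63 (adjusted p = 0.0143 and 0.00134), while those of Mir680-1 (0.05 and -0.03) and Mir680-2 (-0.17 and -0.02) did not pass.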
